A study of Mus musculus with 12 samples.

Results

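Cd163 and 9 other genes that are widely used to mark macrophages were followed over 1 circadian day in the mouse urinary bladder. The other 9 were Mrc1, Msr1, Folr2, Lyve1, Csf1r, Cd68, C1qa, C1qb and Cd14. All non-control probes carrying these gene names were taken, which gave 13 probes for 9 genes, and Lyve1 was found under its older name Xlkd1 through its RefSeq accession, with 2 further probes. These are 15 of 41174 probes and 10 of the 18394 genes tested. Cd163 had been chosen by its level on these same arrays, which varied over the day, so its values are given as a description, without a test. The others were named as macrophage genes beside it. The question was whether the other macrophage genes share that variation.

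Total RNA of whole bladder was hybridised to Agilent 1-colour (Cy3) mouse arrays. The donors were female C57BL/6 mice of wild-type genotype, 10 weeks old. All mice had spent 2 weeks in a cycle of 12 h light and 12 h dark before they were held in constant darkness, and 2 arrays were made at each of circadian time (CT) 0, 4, 8, 12, 16 and 20 h, where CT12 is the start of the subjective night. The labels give neither the days spent in darkness nor whether an array held 1 animal, so the p-values measure the spread between arrays only. CT16 comes from the labels of its arrays and is absent from the times listed in the series' design text.

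Resident macrophages are seeded in most tissues and live under signals from the CSF1 receptor, which both CSF1 and IL-34 engage. They clear dead cells and foreign or altered molecules through endocytic receptors, among them CD163, the receptor for haemoglobin bound to haptoglobin, and they are a main source of the complement component C1q. CD163 is known to be raised by glucocorticoids, and circulating glucocorticoids in mice normally rise towards the onset of the active phase. Because whole tissue was measured, fewer cells of a type and less RNA per cell cannot be told apart.

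The upstream sequences of Cd163 and of C1qb and Cd68, 2 genes that varied with it between arrays of the same time, are printed here to show which letter motifs they hold. Each is the 250 bases before the RefSeq start of transcription on GRCm38.p6, read 5′ to 3′ on the gene's strand, at chr6:124304401-124304650 (plus strand), chr4:136886201-136886450 (minus strand) and chr11:69666171-69666420 (minus strand). Capitals mark GAGGAA, the core letters bound by PU.1, the transcription factor of the macrophage lineage.
Cd163 promoter: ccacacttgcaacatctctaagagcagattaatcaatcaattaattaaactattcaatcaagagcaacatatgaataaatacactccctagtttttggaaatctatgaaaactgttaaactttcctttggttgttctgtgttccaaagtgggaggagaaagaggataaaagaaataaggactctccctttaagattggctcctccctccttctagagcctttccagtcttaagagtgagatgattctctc
C1qb promoter: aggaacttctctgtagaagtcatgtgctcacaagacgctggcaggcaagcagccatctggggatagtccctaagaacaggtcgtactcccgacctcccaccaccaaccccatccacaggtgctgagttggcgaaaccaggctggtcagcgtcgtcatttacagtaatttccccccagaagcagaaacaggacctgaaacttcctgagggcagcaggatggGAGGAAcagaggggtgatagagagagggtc
Cd68 promoter: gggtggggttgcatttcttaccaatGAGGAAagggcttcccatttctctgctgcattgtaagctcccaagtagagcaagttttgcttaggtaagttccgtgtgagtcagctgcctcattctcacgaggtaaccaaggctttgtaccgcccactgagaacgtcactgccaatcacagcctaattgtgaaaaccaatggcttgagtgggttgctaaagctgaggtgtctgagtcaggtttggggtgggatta
Both strands of 6 such windows, which matched 5 of the 10 genes, were searched for 5 motifs: the clock E-box CACGTG, the D-box TTATGNAA, the REV-ERB and ROR element TAGGTCA, the palindromic glucocorticoid response element and GAGGAA. The last of these began 30 bases before the start in C1qb and 225 bases before it in Cd68, and it began on the opposite strand 180, 167 and 35 bases before the start in Mrc1. It occurs in 23.253% of all 32851 windows of this length. No clock element was found in any of the 6 windows, and neither the Cd163 window nor the 2 windows of Folr2 held any of the 5 motifs. Over all windows the shares were 6.021% for the E-box, 3.068% for the D-box, 2.234% for TAGGTCA and 0.009% for the glucocorticoid element.

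Levels are log2 processed signals minus the 75th percentile of probe means on the same array, which lay between 782.0 and 901.1 intensity units. All 15 probes were well above background on all 12 arrays, and none was saturated. Arrays of the same time had r = 0.984 to 0.993 with each other across genes. Markers of the labelled tissue were present throughout: the 8 smooth muscle genes had mean levels of 6.93 to 7.57 and the 8 urothelial genes of 4.80 to 5.61. Genes of the hepatocyte list had mean levels from -3.72 to 1.24 over 13 genes, with the highest value on CT20 replicate 2. The next highest, 1.04, was on CT12 replicate 2. These means include Trf, the highest gene of the list, with a mean level of 3.63 over the 12 arrays. The profile of a gene list on an array was the mean of its genes, each first centred and scaled to equal spread over the 12 arrays. Arrays called highest in a list below were ranked by this profile, not by mean level. CT12 replicate 2 had the highest profile in 10 of the 20 gene lists used here. These were macrophage identity, monocyte and dendritic cell, lymphocyte, mast cell, Kupffer cell, haemoglobin handling, CSF1 receptor, complement, scavenger receptor and glucocorticoid-responsive genes. Each slide carried the arrays of 2 neighbouring times, namely CT0 with CT4 (slide 1), CT8 with CT12 (slide 2) and CT16 with CT20 (slide 3).

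Cd163 was high from CT8 to CT16 and low at CT20 and CT0. Its levels were 1.82 and 1.51 at CT0, 2.24 and 1.95 at CT4, 2.55 and 2.36 at CT8, 2.25 and 2.86 at CT12, 2.38 and 2.14 at CT16, and 1.71 and 1.52 at CT20 (replicates 1 and 2; probe at chr6:124312766-124312825, mm7, plus strand). The 6 arrays of CT8, CT12 and CT16 were all above the 4 arrays of CT20 and CT0, while neighbouring times from CT4 to CT16 overlapped, except CT4 and CT8. The mean level fell into the order CT12, CT8, CT16, CT4, CT0 and CT20, with 1.92-fold between the highest and the lowest mean. A 24 h cosine fitted to the 12 arrays had a peak 2.02-fold above its trough (1.80 to 2.26 for 1 standard error, SE, of the amplitude) at CT10.5 ± 0.61 h (SE). In raw terms the signal ran from 2357 to 6329 intensity units.

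Within slides, the mean of Cd163 was 0.43 higher at CT4 than at CT0 on slide 1, 0.10 higher at CT12 than at CT8 on slide 2 and 0.65 lower at CT20 than at CT16 on slide 3 (log2). With slide as a fixed block the fitted fold was 2.42. Without the 3 arrays of highest hepatocyte profile (CT20 replicate 2, CT12 replicate 2 and CT8 replicate 1) it was 1.70. Without the 3 of highest striated muscle profile (CT4 replicate 1, CT8 replicate 2 and CT12 replicate 1) the fold was 2.36. Leaving out each array in turn gave 1.86 to 2.21, and the fitted peak stayed between CT10.1 and CT11.1 in all 27 alternatives.

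**Figure D1:**
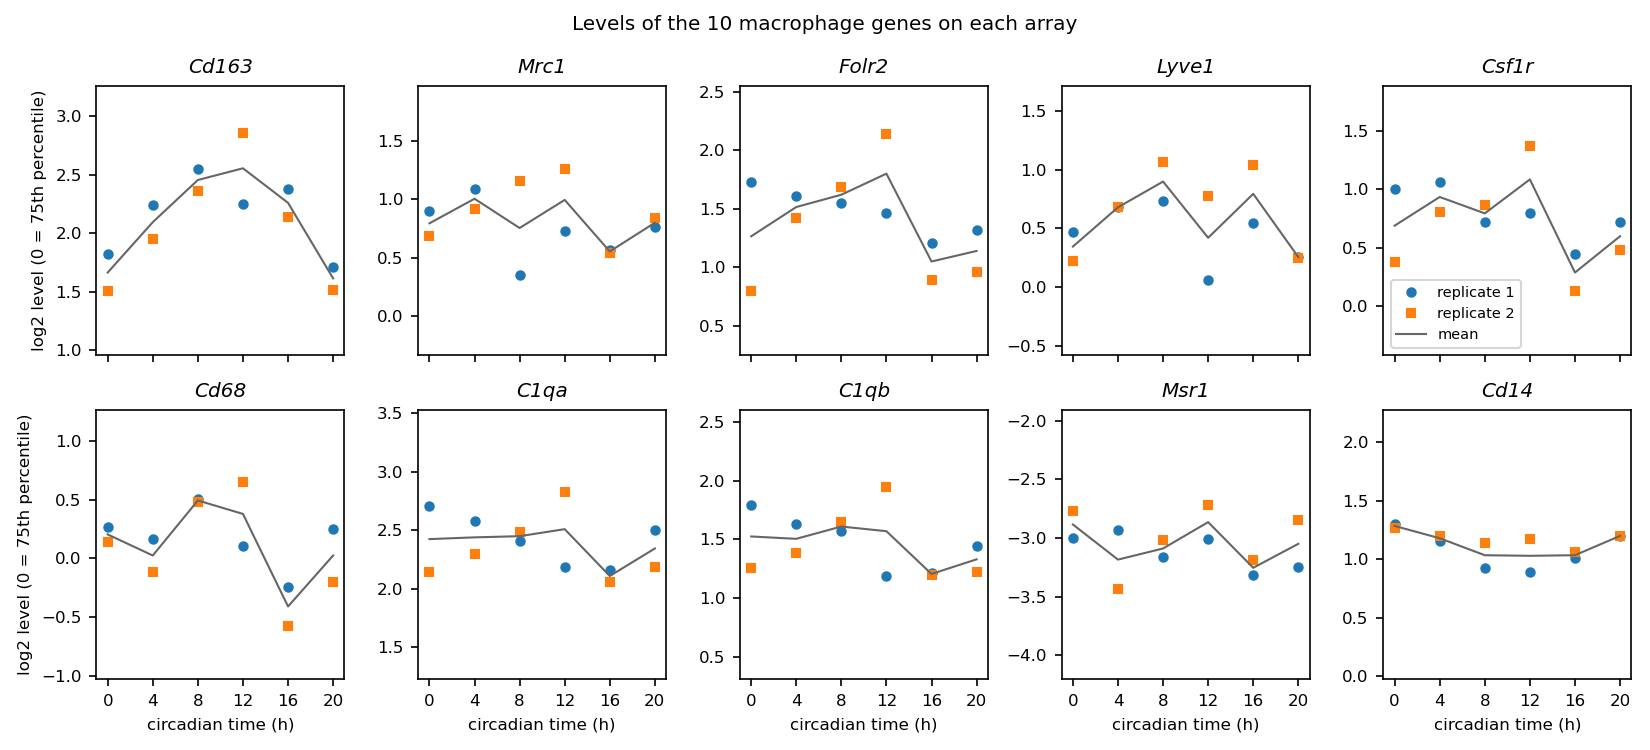
Log2 level of each of the 10 genes (vertical axis, relative to the array's 75th percentile, with every panel spanning the same range) against circadian time in hours. Blue circles are replicate 1, orange squares replicate 2 and the line joins the means; Cd163 is high from CT8 to CT16, whereas Csf1r, Cd68, C1qa, C1qb and Folr2 have their lowest mean at CT16.

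None of the other 9 genes had a 24 h wave at an adjusted p of 0.05 or less (limma's moderated F-test, Benjamini-Hochberg over all genes), beside 114 of 18394 genes (0.62%) that passed. At an unadjusted p, 1 of the 9 passed, Cd14, beside 15.7% of all genes. The median fitted fold of the 9 genes was 1.26, against 1.19 over all genes, and their median SD over the 12 arrays was 0.268 against 0.194 (log2). Fitted peaks of 7 of the 9 fell between CT4 and CT12, where 29.4% of all genes had theirs. That count moved with how slide was treated: with slide as a fixed block it was 2 of 9 (Folr2 and Lyve1), where 27.8% of all genes were, and without CT12 replicate 2 it was 5. Several of the 9 genes moved together between arrays, so their peaks are not separate observations. Whether any wave of the 9 genes differs from that of Cd163 was not tested, and the range of Folr2 (1.32 to 1.88 for 1 SE) overlaps that of Cd163.

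**Figure D2:**
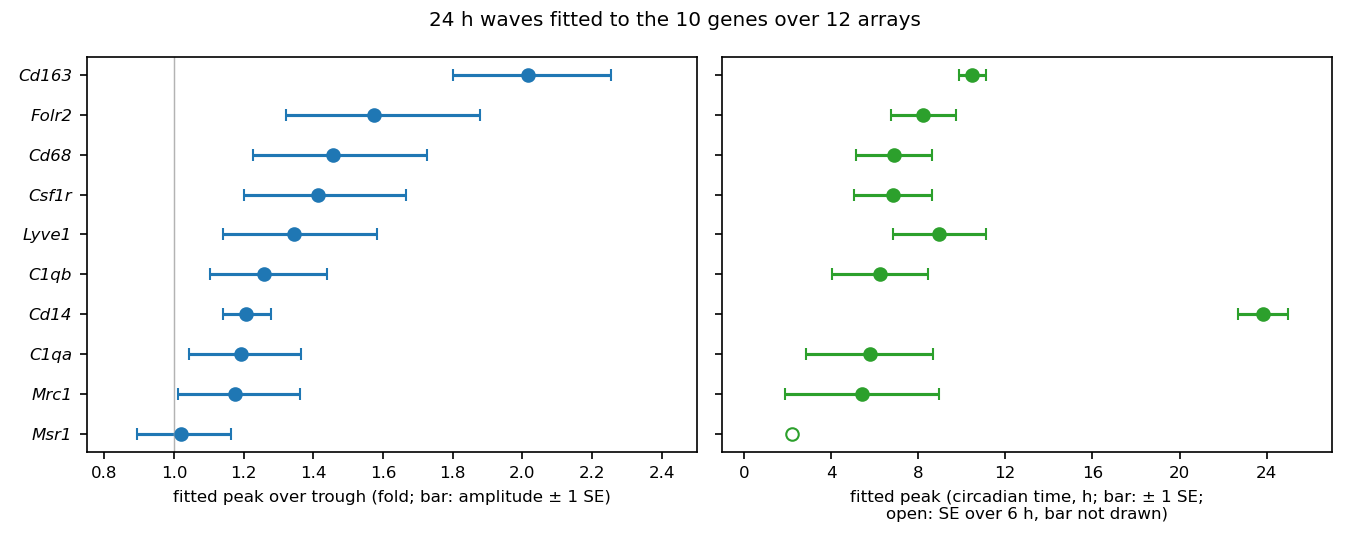
Fitted 24 h waves of the 10 genes over 12 arrays, ordered by size: the left panel gives the fitted peak over the fitted trough as a fold, with bars for the amplitude ± 1 SE, and the right panel the fitted peak in hours of circadian time, with bars of ± 1 SE (the open symbol for Msr1 has an SE above 6 h). Cd163 leads with 2.02-fold at CT10.5, Folr2 follows with 1.58-fold at CT8.2, and Cd14 alone has its peak near CT24.

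Among the endocytic receptors, Folr2 and Lyve1 came nearest to Cd163. Folr2, the folate receptor beta of resident macrophages, had levels of 1.73 and 0.80 at CT0, 1.61 and 1.42 at CT4, 1.55 and 1.69 at CT8, 1.46 and 2.14 at CT12, 1.21 and 0.89 at CT16, and 1.32 and 0.96 at CT20. Its CT0 arrays lay 0.92 apart and enclosed the values of every other time except the higher CT12 array. The fitted wave was 1.58-fold at CT8.2 ± 1.5 h (limma, unadjusted p = 0.0749, adjusted p = 0.363). The wave was smaller with slide as a fixed block, 1.14-fold, and over all 27 alternatives its adjusted p was 0.218 to 0.975.

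Lyve1 encodes a hyaluronan receptor carried by perivascular macrophages and by lymphatic endothelium. The brighter of its 2 probes (chr7:106765983-106766042, mm7, minus strand) read 0.47 and 0.22 at CT0, 0.68 and 0.68 at CT4, 0.73 and 1.07 at CT8, 0.06 and 0.78 at CT12, 0.55 and 1.04 at CT16, and 0.26 and 0.25 at CT20. Both arrays of CT0 and CT20 were low, as for Cd163, but the lowest array of all was at CT12, and the arrays of that time lay 0.72 apart. Its fitted wave was 1.34-fold at CT9.0 ± 2.1 h (adjusted p = 0.543), and 2.18-fold with slide as a fixed block. The dimmer Lyve1 probe (chr7:106767480-106767538) read -1.58 and -2.10 at CT0, -0.92 and -1.11 at CT4, -1.27 and -0.93 at CT8, -1.88 and -1.14 at CT12, -1.83 and -1.56 at CT16, and -1.94 and -1.93 at CT20. This probe had a larger wave, 1.89-fold at CT7.1, with an unadjusted p of 0.00492 that came to 0.127 after adjustment over 27699 probes (limma). The probes thus differ at CT16, which is high on the brighter probe and among the lower times on the dimmer one. Of 6 other genes that mark lymphatic endothelium, none passed the 24 h threshold, adjusted or not, and their mean level stayed between -1.41 and -0.97.

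Mrc1, the mannose receptor CD206, and Msr1, the class A scavenger receptor, gave small fitted waves. Mrc1 (chr2:14281098-14281158, mm7, plus strand) had its highest mean at CT4, where its arrays read 1.09 and 0.92, and its lowest at CT16, 0.55 ± 0.02 (SD, n = 2). At CT8 its arrays read 0.35 and 1.16, which enclose all other arrays but the higher one of CT12. The fitted wave was 1.18-fold at CT5.4 ± 3.5 h (adjusted p = 0.776), and 1.04-fold at CT21.2 with slide as a fixed block. Msr1 was measured near the dim end, with 81 to 132 intensity units on the probe used, and its levels ran from -3.44 to -2.72. Its fitted wave was 1.02-fold (adjusted p = 0.994), with no usable peak time, and its other 2 probes gave 1.08-fold and 1.35-fold waves (unadjusted p = 0.753 and 0.265, limma).

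Csf1r, the receptor on which macrophage survival depends, read 1.0 and 0.38 at CT0, 1.06 and 0.81 at CT4, 0.72 and 0.87 at CT8, 0.80 and 1.37 at CT12, 0.45 and 0.13 at CT16, and 0.72 and 0.48 at CT20. The CT16 mean, 0.29 ± 0.22 (SD, n = 2), was the lowest, and of the other times CT0 alone reached into it, with its lower array. The fitted wave was 1.41-fold at CT6.9 ± 1.8 h (adjusted p = 0.461), and its other 2 probes gave 1.55-fold and 1.48-fold (unadjusted p = 0.176 and 0.0393, limma), with peaks at CT6.3 and CT6.4. The probe with the 1.48-fold wave was very dim, with 11 to 23 intensity units. With slide as a fixed block the Csf1r wave was 1.06-fold at CT21.4 (adjusted p = 0.995).

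Cd68 encodes a lysosomal membrane protein of phagocytes. It was highest at CT8, with 0.51 and 0.48, and lowest at CT16, with -0.24 and -0.58 (chr11:69746386-69746445, mm7, minus strand). The arrays read 0.27 and 0.14 at CT0, 0.17 and -0.12 at CT4, 0.11 and 0.65 at CT12, and 0.25 and -0.20 at CT20, and these times overlapped one another. Both CT16 arrays were below every other array of Cd68. The fitted wave was 1.46-fold at CT6.9 ± 1.7 h (adjusted p = 0.442), and with slide as a fixed block it turned over, to 1.72-fold at CT23.6 (adjusted p = 0.492). Cd68 was the 1 gene of the 9 with an unadjusted p below the threshold for any difference between the 6 times (0.0380, adjusted p = 0.242, limma), beside 19% of all genes at that level.

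C1qa and C1qb encode chains of C1q, the molecule that starts the classical complement pathway. C1qa (chr4:136274931-136274990, mm7, minus strand) read 2.71 and 2.14 at CT0, 2.58 and 2.30 at CT4, 2.41 and 2.49 at CT8, 2.19 and 2.83 at CT12, 2.16 and 2.06 at CT16, and 2.50 and 2.19 at CT20. C1qb (chr4:136259100-136259159) followed the same pattern with 1.79 and 1.26, 1.63 and 1.38, 1.57 and 1.65, 1.19 and 1.95, 1.21 and 1.20, and 1.44 and 1.22 at these times. The spread between the arrays of CT0 and CT12 was larger than the whole range of the time means, which was 0.40 for each gene. Fitted waves were 1.19-fold for C1qa (adjusted p = 0.701) and 1.26-fold for C1qb (adjusted p = 0.563), with peaks at CT5.8 ± 2.9 h and CT6.3 ± 2.2 h. With slide as a fixed block the peaks moved to CT23.2 and CT0.4 (1.21-fold and 1.15-fold).

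Cd14, the co-receptor that hands lipopolysaccharide to TLR4, had its fitted peak on the other side of the day from that of Cd163. Its levels were 1.30 and 1.27 at CT0, 1.16 and 1.20 at CT4, 0.93 and 1.14 at CT8, 0.89 and 1.17 at CT12, 1.01 and 1.06 at CT16, and 1.20 and 1.20 at CT20. Both CT0 arrays were above all others, and CT8 to CT16 held the 5 lowest arrays. The fitted wave was 1.21-fold (1.14 to 1.28 for 1 SE) at CT23.8 ± 1.2 h (limma, unadjusted p = 0.0235, adjusted p = 0.245), and its adjusted p was 0.168 to 0.617 over 27 alternatives. Of the 13 other genes tested around CD14 and LPS sensing none passed the 24 h threshold, with Tlr4 at 1.18-fold (adjusted p = 0.557) and the TLR adaptor Myd88 at 1.23-fold and CT2.0 (adjusted p = 0.153).

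Times 12 h apart were also compared directly. For CT12 minus CT0 none of the 9 genes passed in either direction, beside 0.13% of genes higher and 0.0652% lower, nor did any at an unadjusted p, where 4.74% were higher and 5.97% lower. Cd163 was 0.89 ± 0.22 higher at CT12 (SE, log2). The other differences were 0.53 ± 0.33 for Folr2, 0.40 ± 0.25 for Csf1r, between 0.02 and 0.20 for Mrc1, Msr1, Cd68, Lyve1, C1qa and C1qb, and -0.25 ± 0.11 for Cd14 (adjusted p = 0.467). Without CT12 replicate 2, which left 1 array at CT12, the differences were 0.59 for Cd163, 0.19 for Folr2 and 0.11 for Csf1r, between -0.33 and -0.07 for the 6 genes grouped above and -0.39 for Cd14. For CT16 minus CT4 none passed either, beside 0.223% higher and 0.174% lower. At an unadjusted p, 1 of the 9 was lower at CT16, where 9.29% of all genes were, and none was higher, where 11.6% were. The lower gene was Csf1r, with -0.65 ± 0.25 (limma, unadjusted p = 0.0344, adjusted p = 0.201), and Cd163 differed by 0.17 ± 0.22. For CT20 minus CT8 none passed, beside 0.0217% higher and 0.0381% lower. Here Cd163 differed by -0.84 ± 0.22, and by -0.75 without CT20 replicate 2. At an unadjusted p, 1 of the 9 was lower at CT20, where 5.78% of all genes were, and none was higher, where 6.43% were. The lower gene was Lyve1, with -0.64 ± 0.25 (limma, unadjusted p = 0.0355, adjusted p = 0.377). The test of any difference between the 6 times called none of the 9 and 0.0924% of all genes.

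CT16 was the lowest time for most of the other genes but not for Cd163. The lowest of the 6 time means was at CT16 in 7 of the 9 genes (Mrc1, Msr1, Folr2, Csf1r, Cd68, C1qa and C1qb), a time at which 19.8% of all genes had theirs. These genes are not separate observations, and the count was not tested. Folr2, Csf1r, Cd68, C1qa and C1qb correlated with one another at r = 0.758 to 0.967 over the same 12 arrays. Cd163 had its third-highest mean there, 2.26 ± 0.17 (SD, n = 2), and Lyve1 its second-highest on the brighter probe, 0.80 ± 0.34. The difference in rank between Cd163 and the other genes was not tested. The macrophage identity list, 24 further genes, also had its lowest mean level at CT16, 0.68 and 0.71. CT20 was close, with 0.72 and 0.85, while the other times ran from 0.81 to 1.29. The low at CT16 was not particular to macrophage genes. Both CT16 arrays were below all others in the monocyte and dendritic cell list (-0.997 and -0.924) and the CD14 and LPS sensing list (-0.31 and -0.28). Neutrophil, lymphocyte, CSF1 receptor, haemoglobin handling and scavenger receptor lists were also lowest on average at CT16, but their arrays overlapped other times. Mast cell and complement lists were lowest at CT20, and the Kupffer cell list at CT4. CT16 was close in the complement list, with 1.557 and 1.673 against 1.555 and 1.647 at CT20. It was also close in the Kupffer cell list, with -4.84 and -4.46 against -4.68 on both CT4 arrays.

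Between the 2 arrays of a time, several of these genes moved together. Replicate 1 minus replicate 2 of C1qa was 0.57 at CT0, 0.28 at CT4, -0.08 at CT8, -0.64 at CT12, 0.10 at CT16 and 0.31 at CT20. For Csf1r the same differences were 0.61, 0.25, -0.15, -0.57, 0.32 and 0.24, and for Cd163 they were 0.31, 0.29, 0.19, -0.62, 0.23 and 0.19. Replicate 2 was thus the higher array at CT12 in all of these genes, and the lower one at CT0, CT4, CT16 and CT20.

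**Figure D3:**
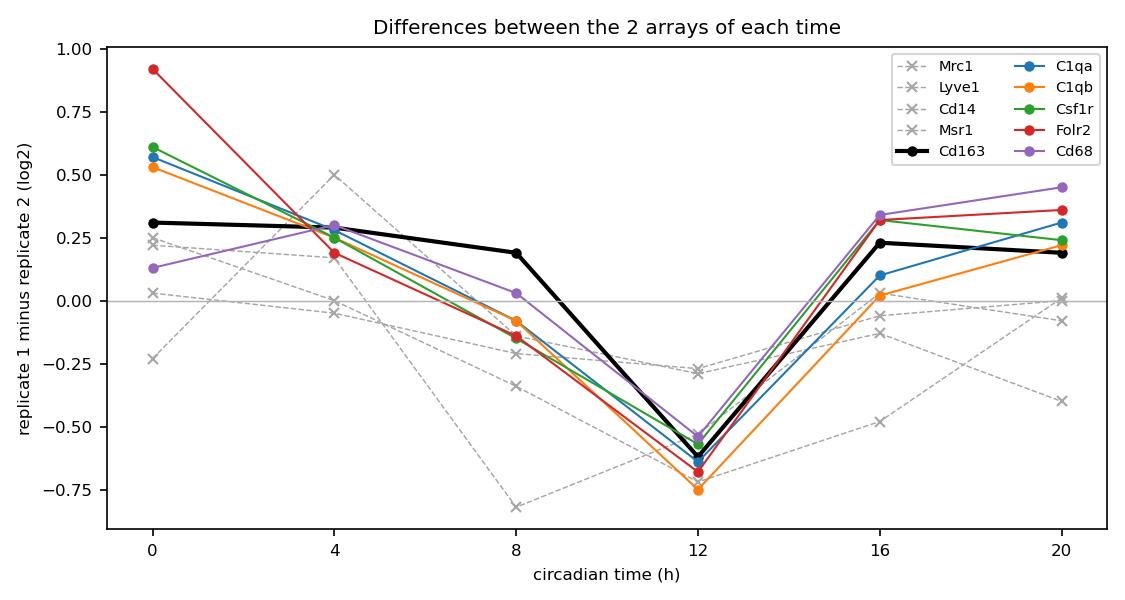
Replicate 1 minus replicate 2 (log2, vertical axis) at each circadian time in hours for the 10 genes; the black line is Cd163, coloured lines are C1qa, C1qb, Csf1r, Folr2 and Cd68, and grey dashed lines with crosses are Mrc1, Lyve1, Cd14 and Msr1. The black and coloured lines lie above 0 at CT0, CT4, CT16 and CT20 and between -0.75 and -0.54 at CT12.

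C1qa, C1qb, Csf1r, Folr2 and Cd68, which were singled out after these values had been seen, correlated with one another across the 12 arrays at r = 0.758 to 0.967 in their 10 pairs. Taken as deviations from the mean of each time, which hold 6 independent differences, the range was 0.755 to 0.984. With Cd163 the 5 genes correlated at r = 0.391 to 0.684 over the arrays and at 0.838 to 0.904 in the deviations. Without the CT12 arrays, where Cd163 had its largest difference, the ranges with Cd163 were 0.143 to 0.508 and 0.770 to 0.822. The higher CT12 array, replicate 2, was also the highest of 12 in the macrophage, monocyte, lymphocyte, mast cell and Kupffer cell lists, and second in hepatocyte genes. The part of those cells in the difference was not tested.

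Across all 12 arrays, none of the 9 genes correlated with Cd163 past the threshold after adjustment over the 9 relations. Folr2 came closest (Pearson r = 0.68, permutation p = 0.0143, adjusted p = 0.129; Spearman rho = 0.57, permutation p = 0.0565, adjusted p = 0.169). Lyve1 had r = 0.57 (permutation p = 0.0564, adjusted p = 0.169; rho = 0.59, permutation p = 0.0458, adjusted p = 0.169), and Cd14 had r = -0.57 (permutation p = 0.0532, adjusted p = 0.169; rho = -0.71, permutation p = 0.0128, adjusted p = 0.115). Pearson values were 0.48 for Csf1r and for C1qb, 0.41 for Cd68, 0.39 for C1qa, 0.16 for Mrc1 and -0.01 for Msr1 (permutation p from 0.118 to 0.979, adjusted p from 0.214 to 0.979; rho from -0.10 to 0.38, permutation p from 0.222 to 0.800).

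The correlations with Cd163 moved with single arrays. Without CT12 replicate 2, r was 0.52 for Folr2, 0.21 for Csf1r, 0.20 for C1qb and for Cd68, 0.09 for C1qa, 0.56 for Lyve1 and -0.77 for Cd14 (adjusted permutation p from 0.0634 to 0.782). Without the 2 arrays farthest from the median of Cd163, CT0 replicate 2 and CT12 replicate 2, r was 0.35 for Folr2, 0.10 for C1qb, -0.07 for C1qa, 0.05 for Csf1r and 0.27 for Cd68, and was 0.48 for Lyve1 and -0.73 for Cd14; leaving out extremes of Cd163 also narrows its range. Without CT0 replicate 1, on the other hand, Folr2 passed (r = 0.79, adjusted permutation p = 0.0351), the 1 such case among 21 alternatives. In deviations from slide means, r was 0.60 for Lyve1 (permutation p = 0.0634), 0.55 for Folr2 (0.0799), 0.40 for C1qb (0.200) and -0.08 for Cd68 (0.863), with adjusted p of 0.359 or more. In deviations from time means, r was 0.90 for C1qa, C1qb and Cd68, 0.88 for Csf1r and 0.84 for Folr2, with exact p over 64 assignments of 0.03125 to 0.09375, where 0.03125 is the smallest possible, and adjusted p of 0.141 or more.

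Relative to C1q, Cd163 was high from CT8 to CT16, with a smaller spread between arrays of a time. C1qa and C1qb themselves had their lowest means at CT16, 2.11 and 1.21, which raises any ratio to them at that time. The ratio of Cd163 had its highest mean at CT16, whereas its level was highest at CT12. The ratios of Cd14 and Lyve1 were highest at CT16 too, although their levels were highest at CT0 and CT8. The log2 ratio of Cd163 to the mean of C1qa and C1qb on the same array, centred over the 12 arrays, was -0.62 and -0.38 at CT0, -0.05 and -0.08 at CT4, 0.37 and 0.11 at CT8, 0.37 and 0.29 at CT12, 0.50 and 0.33 at CT16, and -0.45 and -0.37 at CT20. All 6 arrays of CT8 to CT16 were above all 6 of the other times. The SD between arrays of a time was 0.120 for the ratio against 0.239 for the level, and the time means of the ratio spanned 0.91. This scale was chosen after the differences between arrays had been seen.

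The same ratio of Csf1r had a within-time SD of 0.0882, against 0.280 for its level, and its time means spanned 0.41, from CT16 to CT12. For Folr2 the SD went from 0.366 to 0.136 and the time means spanned 0.47, from CT0 to CT12. For Lyve1 the time means spanned 0.76, from CT0 to CT16, with an SD of 0.222 against 0.279, and for Cd68 the SD went from 0.243 to 0.165. The ratio did not narrow the spread of all genes: the SD of Cd14 went from 0.101 to 0.233, that of Msr1 from 0.222 to 0.331 and that of Mrc1 from 0.293 to 0.261. In a 24 h fit of all genes with the C1q mean as a covariate, the fold was 1.94 for Cd163 and 1.32 for Folr2 (CT10.3, limma, adjusted p = 0.247), and none of the 7 genes outside C1q passed.

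**Figure D4:**
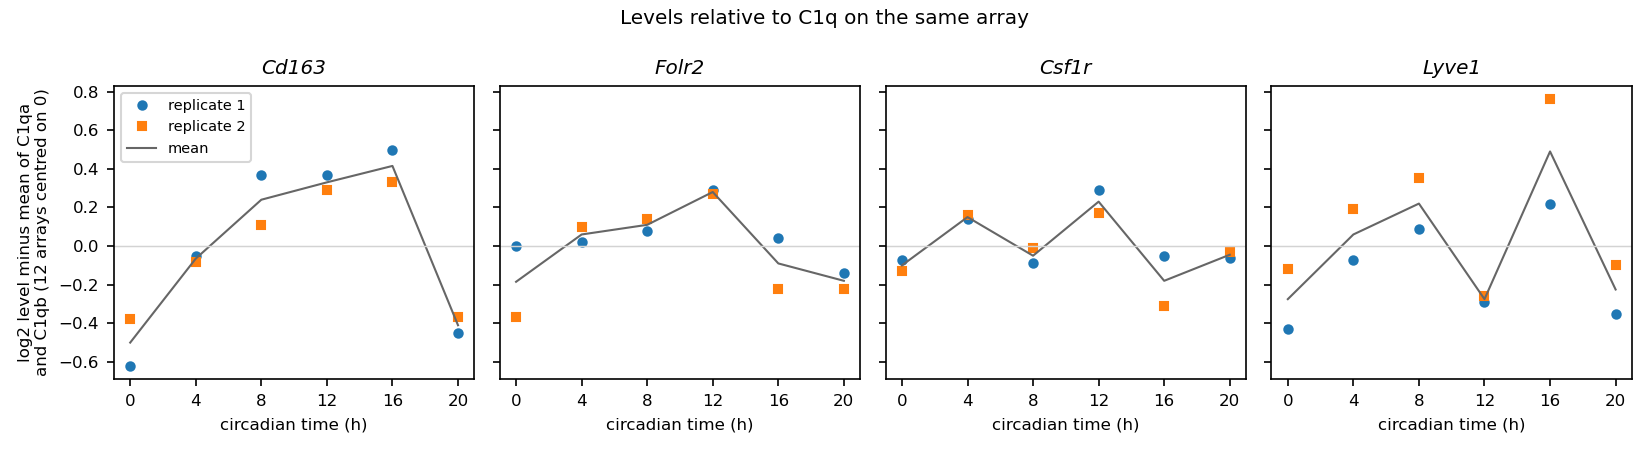
Log2 level of Cd163, Folr2, Csf1r and Lyve1 minus the mean of C1qa and C1qb on the same array (vertical axis, centred on 0 over 12 arrays) against circadian time in hours; blue circles are replicate 1, orange squares replicate 2 and lines join the means. Cd163 lies above 0 at CT8, CT12 and CT16 and below it at the other times.

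The genes most like Cd163 over the 12 arrays were not macrophage markers of the lists used here. Among 13638 named genes well above background on all arrays, Cdkn1c, a cell cycle inhibitor, had the highest correlation with Cd163 (r = 0.959). It was followed by Klf9 (0.946), a transcription factor gene induced by glucocorticoids, Bche (0.943), encoding butyrylcholinesterase, Bnip3 (0.939), a mitophagy receptor gene, and Fgl2 (0.930), encoding a fibrinogen-like protein. Their fitted folds were 1.52 to 2.09 and their fitted peaks lay between CT10.0 and CT10.9, as likeness to Cd163 requires. By the same measure 491 of 18394 genes (2.67%) stood above Folr2, 5.90% above Lyve1, 8.95% above Csf1r, 9.01% above C1qb and 93.3% above Cd14.

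Other genes of the pathways around these members were counted from lists of related genes. Over all genes 0.62% passed the 24 h threshold and 15.7% did unadjusted. In the haemoglobin and haem list around CD163, 0 of 14 genes passed the 24 h threshold and 3 did unadjusted (median fold 1.13, against 1.19 over all genes), with haem oxygenase Hmox1 at 1.13-fold, haptoglobin Hp at 2.21-fold (adjusted p = 0.631) and Adam17, the protease that sheds CD163, at 1.36-fold and CT2.8 (adjusted p = 0.126). In the CSF1 receptor list 0 of 9 passed and 3 did unadjusted (median fold 1.25). Its ligand gene Csf1 came near, with 1.57-fold at CT8.9 ± 0.69 h (adjusted p = 0.0695), and Il34 had 1.55-fold at CT13.2 (adjusted p = 0.258). In the complement list 0 of 16 passed and 3 did unadjusted (median fold 1.33), with C3 at 1.93-fold and CT7.5 (adjusted p = 0.152) and the third C1q chain, C1qc, at 1.15-fold (adjusted p = 0.728). Of 13 further scavenger receptors 0 passed and 2 did unadjusted (median fold 1.23), with the hyaluronan receptor Stab2 at 1.84-fold (adjusted p = 0.151). The CD14 and LPS sensing list had 1 of 13 unadjusted (median fold 1.16).

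Of the 24 other macrophage identity genes, 0 passed and 8 did unadjusted (median fold 1.22), beside 0.62% and 15.7% of all genes. Cbr2, a carbonyl reductase gene of resident macrophages, had the lowest p, with 1.45-fold at CT9.1 ± 0.80 h (adjusted p = 0.102). Maf, a transcription factor of resident macrophages, had 1.57-fold at CT10.8 (adjusted p = 0.144), and Adgre1, which encodes F4/80, had 1.19-fold at CT23.3 (adjusted p = 0.683). The largest fold of the 8 was that of Cx3cr1, 1.85-fold at CT3.1 (adjusted p = 0.135). The others of the 8 peaked at CT4.2 (Laptm5), CT7.3 (Trem2), CT7.7 (Cd86), CT7.8 (F13a1) and CT7.9 (Clec10a). Maf, Adgre1, Cx3cr1, Laptm5, Trem2, Cd86, F13a1, Clec10a, Hmox1, Hp, Il34, C1qc, Tlr4 and Trf lie outside the rule for named genes and were chosen after their values were seen.

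The glucocorticoid-responsive list held 3 of 9 genes past the 24 h threshold and 7 unadjusted (median fold 1.79), beside 0.62% and 15.7% of all genes. Per1, which is also a core clock gene and is counted in both lists, had 4.76-fold at CT10.7 (adjusted p = 0.0394), Tsc22d3, which encodes GILZ, 3.51-fold at CT13.2 (adjusted p = 0.0208) and Klf9 2.09-fold at CT10.8 (adjusted p = 0.0159). The others that passed unadjusted peaked at CT12.3 (Fkbp5), CT12.6 (Nr3c1), CT7.2 (Mt1) and CT5.7 (Mt2). Sgk1 and Dusp1, which did not pass, had fitted peaks at CT9.2 and CT17.1. These further genes lie outside the rule for named genes and are given to show the whole list. Whether glucocorticoids had a part in the level of Cd163 was not tested. In this list 3 genes were higher at CT12 than at CT0, 1 was higher at CT16 than at CT4 and 1 was lower at CT20 than at CT8. The shares of all genes in these directions were 0.13%, 0.223% and 0.0381%. The core clock list held 13 of 16 past the threshold (15 unadjusted, median fold 3.94), with Dbp at 18.1-fold and CT9.5 (adjusted p = 2.3e-05), Nr1d1 at 11.5-fold and CT6.8 (adjusted p = 9.8e-06) and Arntl at 9.02-fold and CT22.5 (adjusted p = 0.00204). In the other 18 lists no gene passed in any of the 3 contrasts 12 h apart.

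Markers of other cells that whole bladder could hold were without called waves, beside 0.62% of all genes called and 15.7% that passed unadjusted. Of monocyte and dendritic cell genes 0 of 14 passed (3 unadjusted, median fold 1.30), with Plac8 lowest in p (1.65-fold, CT11.6, adjusted p = 0.128). Lymphocyte genes gave 0 of 9 (0 unadjusted, median fold 1.31, Cd8a adjusted p = 0.389), neutrophil genes 0 of 4 (1 unadjusted, 1.92, Mmp9 adjusted p = 0.153) and mast cell genes 0 of 6 (1 unadjusted, 1.59, Tpsb2 adjusted p = 0.275). Kupffer cell genes gave 0 of 5 (0 unadjusted, 1.55, Cd5l adjusted p = 0.705), at mean levels of -5.33 to -3.07, with the defining gene Clec4f well above background on 4 arrays. Lymphatic endothelium gave 0 of 6 (0 unadjusted, 1.22, Prox1 adjusted p = 0.436) and blood endothelium 0 of 8 (2 unadjusted, 1.19, Flt1 adjusted p = 0.286).

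Hepatocyte, adipocyte and striated muscle genes had large fitted folds, with 1 gene called among them. Over all genes 0.62% were called and 15.7% passed unadjusted. Hepatocyte genes gave 0 of 13 (0 unadjusted) despite a median fold of 2.52, with Cyp2e1 at 3.47-fold (adjusted p = 0.423). Adipocyte genes gave 0 of 9 (0 unadjusted, median fold 3.03, Lep adjusted p = 0.407). Striated muscle genes gave 1 of 13, Tcap with 12.0-fold at CT9.8 ± 0.61 h (adjusted p = 0.0458), and 8 unadjusted (median fold 2.38). Urothelium gave 0 of 8 (0 unadjusted, 1.24, Upk3b adjusted p = 0.372) and smooth muscle 0 of 8 (1 unadjusted, 1.1, Smtn adjusted p = 0.202). The part of these tissues in the levels of the macrophage genes was not tested, and the count of the other 9 genes with a wave was also 0 when the arrays highest in hepatocyte genes, or those highest in striated muscle genes, were left out.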

How the data were processed

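Scanner files of 12 arrays give intensity per spot as deposited, made with Agilent Feature Extraction 10.5.1.1 per the file headers, with no scaling between arrays. Yes-or-no marks per spot (well above background, saturated, outlier) are other columns that the authors deposited. The deposited value table holds log2 values by the authors, and R 2.8.1 is named in the submitters' processing notes; how these log2 values were normalised is not given in the sources used here, so they served as an alternative only. Log2 processed signals were averaged per probe without outlier spots and scaled to each array's 75th percentile. The probe with the highest mean stood for its gene, and 18394 genes well above background on at least 4 arrays were tested; 271 probes with a missing value were dropped. Gene names were taken through RefSeq accessions and symbols of GRCm38.p6, while probe coordinates are those of the files, on mm7, and without an annotation of that build their exons were not looked up. In limma 3.58.1 (R 4.3.3), a 24 h cosine and sine fit, a 1-way fit over the 6 times and 3 contrasts had p-values adjusted over all genes (Benjamini-Hochberg); amplitudes and peaks carry delta-method SEs, and the fits were tested on simulated data. Correlations used two-sided permutation tests (1e+05 draws, or all assignments within times or slides). Members and lists were chosen with earlier results of these data known. Named genes are the 10 members, the 5 genes of highest r with Cd163, and from each list up to 3 past the 24 h threshold or else the 1 of lowest p. Other genes printed from a list lie outside this rule, and the Results state which were chosen after their values were seen. Alternatives covered background correction, scaling, filter, probe choice, replicate and slide blocks, array weights, the variance prior and left-out arrays. The number of arrays limits the precision.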

Additional observations from a re-analysis of the deposited data

How the results depend on the processing

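The count of the other 9 genes with a 24 h wave stayed at 0 in all 27 alternatives, while calls over all genes ranged from 2 (slide as a fixed block) and 28 (slide as a random block) through 50 without a filter and 62 with median scaling to 201 with array weights, against 114. They numbered 42 to 104 when single arrays were dropped, 10 when the hepatocyte-high arrays were and 25 when the striated-muscle-high arrays were. The counts for any difference and for the 3 contrasts also stayed at 0. The count of genes correlated with Cd163 was 0 to 1 with each array left out, the 1 being Folr2 without CT0 replicate 1. With replicate number as a block (the replicate block) the 24 h count was 0 of 9, with 92 genes called in all. Deviations of same-numbered arrays correlated at -0.20 to 0.44 over 15 pairs of times, over 0.1 in 10 of them and not in all. The labels do not say whether same-numbered arrays belong together, so replicate number was used as an alternative only. Its part in the differences that the genes shared between arrays of a time was not tested. The amplitude of Cd163, 0.51 (log2), was 0.64 with the slide block, 0.38 without the arrays highest in hepatocyte genes and 0.62 without those highest in striated muscle genes. A random slide block could not be fitted in the 1-way model, and a fixed one gives no contrast between slides. Using the C1q covariate and leaving out the 2 arrays farthest from the median of Cd163 were chosen after seeing the data. With 2 arrays a time, waves near the size of the replicate spread could be missed.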
